A study of Canis lupus familiaris with 8 samples.

Results

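Mature αβ T cells usually carry 1 of 2 co-receptors. CD4 binds MHC class II and marks helper and regulatory cells, whereas CD8, a dimer built from CD8A and CD8B chains, binds MHC class I and marks cytotoxic cells. αβ T cells that lack both, named double-negative (dn) T cells, are known from the blood of humans, mice and dogs, and helper-like, regulatory and cytotoxic features have been described in them. Here dn means only that no CD4 and no CD8A transcript was counted. The proteins were not measured in these libraries, and a cell with 0 counts of a transcript may still express the gene.

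TCRαβ+ T cells were sorted by flow cytometry from blood of 4 healthy Beagles, frozen, thawed together and applied to droplet-based 5′ sequencing, with 1 gene expression library and 1 T cell receptor (V(D)J) library per dog. The donors were a female aged 5 years (dog 1), males aged 7 years (dogs 2 and 3) and a male aged 9 years (dog 4), so that age, sex and dog cannot be told apart. The dog was the replicate (n = 4). The expression libraries held 33125 barcodes, with medians between 3534 (dog 1) and 3844 (dog 2) unique molecular identifiers (UMIs) per barcode and between 26904346 and 35661623 UMIs in all.

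The dn cells described here were chosen by 4 measured values. At most 10% of their UMIs came from mitochondrial genes, they held 5000 to 20000 UMIs, CD4 and CD8A were both at 0 UMIs, and exactly 1 rearranged TCR beta chain (TRB) had been assembled. The rule found 1629 dn cells, 238, 485, 525 and 381 in dogs 1 to 4, of 5322 cells that met the same limits on depth, mitochondrial share and TRB. They were compared with 2460 cells with CD4 and no CD8A UMI (CD4 single-positive, sp) and 1036 cells with CD8A and no CD4 UMI (CD8A sp) of the same limits. A further 197 cells held both. Levels of CD4 and CD8A, the UMI total and the TRB number chose the cells and are not results. Summed over a dog, the dn cells held between 1500397 and 3268603 UMIs.

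The label was checked on transcripts that the rule did not use. CD3E, a chain of the TCR complex, had a UMI in 99.4 ± 0.230% (SD, n = 4) of dn cells after every cell had been thinned to 5000 UMIs, so the dn cells carried the T cell marker. Levels are given as UMIs per 1000000 UMIs of a class in a dog (CPM). The NK cell genes NCR1, KLRF1 and NCAM1 had means of 0.0765, 0.244 and 0 CPM in dn cells, and the γδ T cell constant region TRDC had 2.67, 0.308, 0.306 and 2.56 CPM in dogs 1 to 4. CSF1R and S100A12 of monocytes, PPBP of platelets and PAX5 of B cells were at 0 in all dn cells of all dogs, while CD79B and MS4A1 of B cells had means of 1.19 and 4.59 CPM. Of the other-cell lists, high levels were found for the gene listed as CD79A, at 9036 CPM in dn, 9587 CPM in CD4 sp and 9181 CPM in CD8A sp cells, and for S100A8, at 3512, 2716 and 1524 CPM.

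The junctions of the 4 clones with the most deep dn cells are printed because the result on clones further on is described for them, from their cells under 5000 UMIs, which did not enter the choice. A clone here is all cells of a dog with the same TRB V gene, J gene and junction bases. Letters in capitals are bases that were assigned to neither the V nor the J gene (the D segment and added bases), each sequence runs 5′ to 3′ on the coding strand, and the receptor calls are those of the deposited files.
dog 2, TRBV24 and TRBJ2-6: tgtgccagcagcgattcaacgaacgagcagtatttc
dog 3, TRBV7 and TRBJ2-1: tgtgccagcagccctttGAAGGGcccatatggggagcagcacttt
dog 3, TRBV7 and TRBJ2-6: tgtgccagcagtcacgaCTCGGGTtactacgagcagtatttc
dog 4, TRBV7 and TRBJ2-5: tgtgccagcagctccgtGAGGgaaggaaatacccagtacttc

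By transcript counts the dn cells were a large class in every dog. They made up 27.6% of deep cells with 1 TRB in dog 1 (exact binomial 95% interval 24.6 to 30.7), 30.6% in dog 2 (28.3 to 32.9), 36.0% in dog 3 (33.5 to 38.5) and 27.0% in dog 4 (24.7 to 29.4). The intervals cover counting error only, and the mean was 30.3 ± 4.12% (SD, n = 4). Dog 3 had the highest share by this rule, and with any number of TRB rows dog 2 had (33.01 against 32.33%). CD4 sp cells made up 47.2 ± 8.44% and CD8A sp cells 19.0 ± 3.84%. Since the rule sets these shares, they are given as a description. The study reports more dn cells by sequencing than earlier flow cytometry had led it to expect. It set such cells aside, as true dn cells could not be separated from cells whose CD4 transcript went undetected.

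Depth within the chosen range moved the share little. The mean over dogs was 31.1 ± 4.39% between 5000 and 6000 UMIs, 28.6 ± 5.53% between 6000 and 7000, 29.3 ± 1.79% between 7000 and 8000, 26.5 ± 6.65% between 8000 and 10000 and 32.2 ± 7.99% between 10000 and 20000. The last of these bins held 236 cells, 77 of them dn. Thinning every cell to 5000 UMIs gave 33.2 ± 3.50%. The threshold of 1 UMI did matter. Of the CD4 sp cells, 672 (27.3%) lay just outside the rule with a single CD4 UMI, at a mean of 2.73 CD4 UMIs per CD4 sp cell, whereas 77 CD8A sp cells (7.43%) had a single CD8A UMI, at a mean of 8.01. With 2 UMIs required to call a cell positive, the dn share was 44.9 ± 2.20%.

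**Figure D1:**
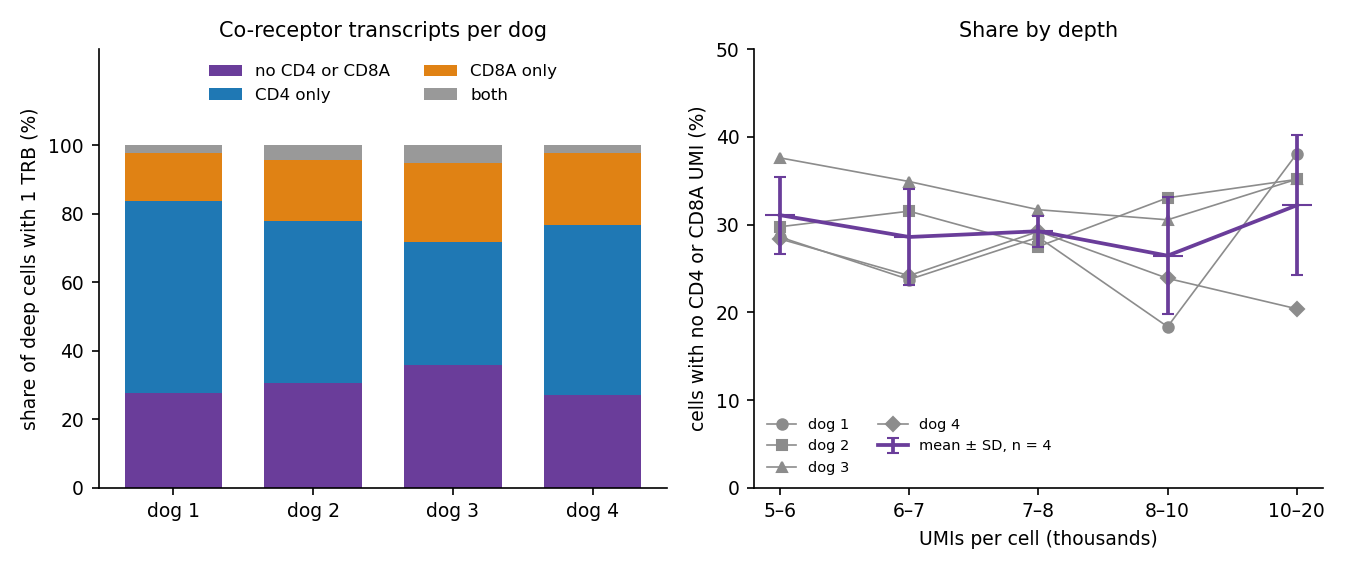
Left, stacked bars give the share (%) of deep cells with 1 TRB in each dog that held no CD4 or CD8A UMI, CD4 only, CD8A only or both. Right, the share of dn cells (%) against UMIs per cell, with each dog as grey markers and the mean ± SD over 4 dogs in purple: the mean stays between 26.5 and 32.2% across the 5 depth bins.

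Median UMIs and genes per cell were close between the classes. The median mitochondrial share was lower in dn than in CD8A sp cells in each dog. Median UMIs per cell, averaged over dogs, were 5773 in dn, 5813 in CD4 sp and 5935 in CD8A sp cells, median genes were 2062, 2065 and 2095, and median mitochondrial shares were 1.77, 1.699 and 2.10%. Barcodes can recur between libraries by chance, and 69 dn cells had a barcode that also occurred in another dog's library. None of the 312 barcodes found in more than 1 library with 1 TRB each carried the same TRB there. Of 1186 distinct TRB rearrangements of dn cells, 2 were seen in more than 1 dog.

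The first comparison asked whether dn cells looked like cells with CD4 or like cells with CD8A. Over the whole transcriptome far fewer genes separated them from CD4 sp than from CD8A sp cells. UMIs were summed per dog and class, and edgeR's quasi-likelihood test was fitted with the dog as a block, so that each dog served as its own control. Of 8974 genes tested, 60 were higher (0.669%) and 11 lower (0.123%) in dn than in CD4 sp cells at a Benjamini-Hochberg adjusted p under 0.05, in all 71 (0.791%). Without dog 2 edgeR called 13 genes and without the block 2. Against CD8A sp cells 716 genes were higher (7.98%) and 519 lower (5.78%), in all 1235 (13.8%), and 739 in all without dog 2 and 557 without the block. The shares in brackets are the background for the counts of list genes below. Both comparisons use the same dn sums, and the CD8A sp sums held fewer cells. The median log2 fold change over all genes was -0.0035 and -0.0057.

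Helper genes stood near the level of CD4 sp cells. CD40LG, the ligand by which helper cells activate B cells, had 74.0, 87.8, 78.6 and 81.4 CPM in dn cells of dogs 1 to 4 against 70.8, 84.7, 74.2 and 85.4 CPM in CD4 sp and 13.8, 20.9, 29.8 and 13.2 CPM in CD8A sp cells. The dn and CD4 sp ranges overlapped, and every dn value lay above every CD8A sp value. The log2 fold changes were 0.023 ± 0.11 (SE; edgeR adjusted p = 0.99) against CD4 sp and 2.01 ± 0.16 (edgeR adjusted p = 5.58e-08) against CD8A sp cells. Of the 7 genes in the list of CD4 lineage and helper genes, none passed the test against CD4 sp cells in either direction and 7 were higher than in CD8A sp cells (7.98% of all genes), with medians of 0.019 and 1.71. ZBTB7B, the transcription factor that commits thymocytes to the CD4 lineage, had 20.04 ± 0.583 CPM in dn, 19.8 ± 3.42 in CD4 sp and 6.60 ± 3.71 in CD8A sp cells. The co-stimulator ICOS had 136 ± 34.2, 154 ± 27.5 and 60.3 ± 16.6 CPM, and the checkpoint receptor CTLA4 had 137 ± 16.6, 135 ± 13.7 and 39.3 ± 22.0 CPM in the same order.

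CD8B, the partner chain of CD8A, was near the CD4 sp level as well. It had 54.0, 56.4, 39.8 and 43.5 CPM in dn, 40.5, 48.9, 38.8 and 29.2 CPM in CD4 sp and 568, 632, 567 and 607 CPM in CD8A sp cells. The dn value was above the CD4 sp value within all 4 dogs, the ranges overlapped, and the gene did not pass the test against CD4 sp cells (log2 fold change 0.28 ± 0.11, edgeR adjusted p = 0.429), while it was lower than in CD8A sp cells (-3.62 ± 0.09, edgeR adjusted p = 9.27e-15), with log2 fold changes of -3.90 at 5000 to 7000 UMIs and -2.96 at 7000 to 20000 UMIs. After thinning to 5000 UMIs, 21.1 ± 2.88% of dn, 17.3 ± 3.12% of CD4 sp cells and 70.1 ± 3.34% of CD8A sp cells had a CD8B UMI (unthinned 25.1, 21.6 and 76.0%). CD4 sp cells are the class here that should lack the gene, and whether their CD8B UMIs came from free RNA or from low expression was not tested. The dn share exceeded the CD4 sp share in 4 of 4 dogs, with an exact paired permutation p of 0.13 (two-sided), the smallest that 4 dogs allow.

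Cytotoxic genes were far below the level of CD8A sp cells, yet a few lay above that of CD4 sp cells. Of 12 genes tested in the cytotoxic list, 12 were lower than in CD8A sp cells (5.78% of all genes, list median log2 fold change -3.12) and 2, CTSW and GZMB, were higher than in CD4 sp cells (0.669% of all genes, list median 0.65). CTSW, a cysteine protease of cytotoxic cells, had 51.3, 35.4, 31.8 and 46.0 CPM in dn, 18.6, 12.4, 12.02 and 11.4 CPM in CD4 sp and 362, 336, 261 and 379.9 CPM in CD8A sp cells. The 3 classes did not overlap. Its log2 fold changes were 1.60 ± 0.13 (edgeR adjusted p = 3.28e-06) against CD4 sp and -3.03 ± 0.09 (edgeR adjusted p = 7.25e-14) against CD8A sp cells. GZMB, the granule protease granzyme B, had 25.3, 19.1, 52.9 and 34.1 CPM in dn against 2.99, 13.0, 7.21 and 10.4 CPM in CD4 sp cells, again without overlap (log2 fold change 1.91 ± 0.32, edgeR adjusted p = 0.00424), and a mean of 695 ± 129 CPM in CD8A sp cells. Both passed against CD4 sp cells with each dog left out in turn, and without the block CTSW passed (edgeR adjusted p = 0.00529) and GZMB did not (1.92, edgeR adjusted p = 0.0719). Against CD8A sp cells both differences were smaller in deeper cells, with log2 fold changes of -3.63 for CTSW and -5.40 for GZMB at 5000 to 7000 UMIs and of -1.76 and -2.79 at 7000 to 20000 UMIs. A CTSW UMI was found in 8.97 ± 2.64% of thinned dn cells, 4.99 ± 1.81% of CD4 sp cells and 63.2 ± 11.3% of CD8A sp cells (unthinned 10.7, 5.84 and 66.3%).

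In all, 9 of the 60 genes higher than in CD4 sp cells were lower than in CD8A sp cells and so lay between the classes. Apart from CTSW and GZMB they were EOMES, a transcription factor of cytotoxic memory cells, FCER1G, a signalling adaptor of NK receptors, HAVCR2, the checkpoint receptor TIM-3, TGFBR3, a co-receptor for TGF-β, PLCG2, a signalling phospholipase, FES, a tyrosine kinase, and 1 gene with an identifier only. PLCG2 and FES were named after their values were seen. EOMES had 3.33, 9.55, 11.9 and 8.10 CPM in dn, 0.664, 2.28, 4.81 and 2.79 CPM in CD4 sp and 27.1 ± 3.39 CPM in CD8A sp cells, higher than in CD4 sp cells within each dog although the ranges overlapped (log2 fold change 1.68 ± 0.28, edgeR adjusted p = 0.0049; 0.158 without dog 2). FCER1G had 37.3, 4.62, 12.2 and 8.52 CPM in dn, at most 3.48 CPM in CD4 sp and 274 ± 83.0 CPM in CD8A sp cells, with dog 1 highest among the dn sums. Its call against CD4 sp cells was lost without dog 1 (edgeR adjusted p = 0.0534) and without dog 3 (edgeR adjusted p = 0.0787). After thinning, an FCER1G UMI was found in 2.52, 0.412, 0.952 and 0.787% of dn cells of dogs 1 to 4. In CD4 sp cells it was 0.207, 0.665, 0 and 0.856%. The dn share was higher in only 2 of 4 dogs, and few dn cells carried the FCER1G level. TGFBR3 had 29.0 ± 9.36, 14.98 ± 1.87 and 45.3 ± 7.05 CPM in the 3 classes. Its place between them was not stable, since the log2 fold change against CD8A sp cells was -0.56 in all cells, 0.063 at 7000 to 20000 UMIs and -0.098 with 1 cell per clone, and the call against CD4 sp cells was lost without dog 2 (edgeR adjusted p = 0.158). When dn cells with a CD8B UMI were left out, CTSW and GZMB still passed against CD4 sp cells (log2 fold changes 1.41 and 1.48), whereas EOMES (1.44, edgeR adjusted p = 0.0527) and FCER1G (2.27, edgeR adjusted p = 0.069) did not. Only dn cells were filtered in that run. CD4 sp cells with a CD8B UMI were kept, so the classes were not treated alike.

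**Figure D2:**
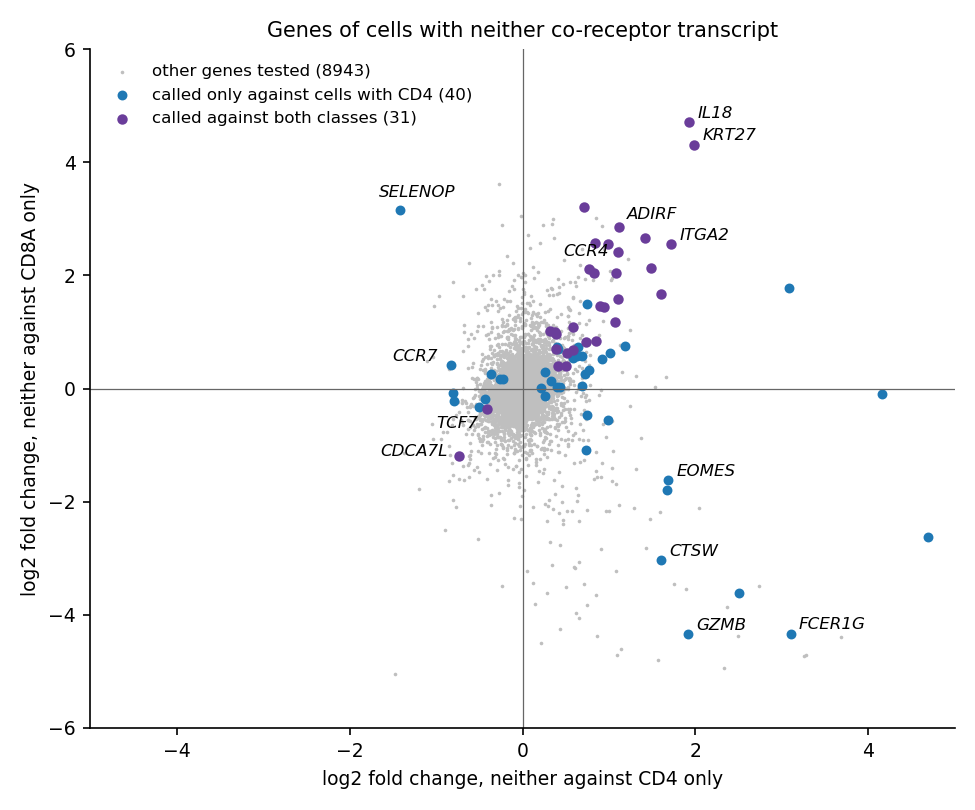
Each point is a gene: log2 fold change of dn against CD4 sp cells (horizontal) and against CD8A sp cells (vertical), from 1 edgeR fit to sums of 4 dogs, so that both axes share the dn sums. Genes called in the same direction against both classes (31, purple) sit at the upper right apart from TCF7 and CDCA7L, and CTSW, GZMB, EOMES and FCER1G lie at the lower right, between the classes. The key marks these among genes called only against cells with CD4 (blue). They were also called against CD8A sp cells, in the opposite direction.

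A further question was whether any gene set dn cells apart from both single-positive classes. For this a gene had to differ in the same direction from both, by the larger of its 2 p-values. In all 31 genes passed (0.345% of those tested), 29 higher (0.323%) and 2 lower (0.0223%), and 28 of the 29 were higher in every dog against either class. They include receptors for a chemokine, a cytokine and collagen. In 26 of the 29 the CD4 sp mean was above the CD8A sp mean. The calls rest on dog 2 and on the pairing by dog: no gene passed in edgeR without dog 2 (189 at an unadjusted p under 0.05) or without the block (117), and DESeq2 called 12. The fold change of IL2RA against CD4 sp cells was 1.08 in 4 dogs, 1.01 without dog 2 and 1.07 without the block, and that of ITGA2 1.72, 1.51 and 1.71.

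Among the receptors, ITGA2, the α2 integrin chain that binds collagen, had 36.7, 38.8, 21.1 and 17.0 CPM in dn, 11.6, 8.70, 8.12 and 6.27 CPM in CD4 sp and 3.76, 3.22, 2.84 and 8.09 CPM in CD8A sp cells. All dn values lay above all others, and the log2 fold changes were 1.72 ± 0.21 and 2.55 ± 0.30 (edgeR adjusted p = 0.000904 and 6.81e-06). The latter was 3.28 without dog 4 and 3.61 at 7000 to 20000 UMIs. CCR4, the chemokine receptor that guides Th2, regulatory and skin-homing cells, had 28.0, 47.8, 29.7 and 26.0 CPM in dn, 9.63, 19.3, 20.7 and 11.4 CPM in CD4 sp and 5.02, 10.2, 3.79 and 6.07 CPM in CD8A sp cells. All dn values were again the highest, with dog 2 apart from the other dn sums, and the log2 fold changes were 1.10 ± 0.16 and 2.41 ± 0.23 (edgeR adjusted p = 0.00154 and 4.86e-07). IL2RA, the α chain of the interleukin 2 receptor (CD25), varied least between dogs, with 26.7, 27.4, 25.1 and 23.4 CPM in dn, 15.9, 11.4, 12.3 and 9.75 CPM in CD4 sp and 6.03 ± 0.925 CPM in CD8A sp cells. Its log2 fold changes were 1.08 ± 0.14 and 2.04 ± 0.20 (edgeR adjusted p = 0.00103 and 6.77e-07).

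The shares of cells showed the same order. After thinning, a CCR4 UMI was found in 11.5 ± 3.03% of dn, 4.79 ± 0.808% of CD4 sp cells and 2.28 ± 0.691% of CD8A sp cells. For IL2RA the shares were 9.496 ± 0.761, 4.71 ± 0.616 and 2.65 ± 0.435%, and for ITGA2 they were 10.9 ± 3.75, 3.44 ± 0.927 and 1.61 ± 0.651%. Each was higher in dn than in CD4 sp cells in 4 of 4 dogs (exact paired permutation p = 0.13 each, two-sided). Most dn cells thus had no UMI of these receptors. Over the 106 list genes compared in this way, 21 had a higher and 10 a lower share in dn than in CD4 sp cells in every dog (6 lower with 2 UMIs required, and 16 and 17 lower without dogs 1 and 3), and none of these tests can pass a threshold of 0.05 with 4 dogs, before or after adjustment.

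Of the list of Th2-like genes, 2 of 3 tested were higher than in CD4 sp cells (0.669% of all genes, list median log2 fold change 0.37) and 3 of 3 higher than in CD8A sp cells (7.98% of all genes, list median 1.19). GATA3, the Th2 master transcription factor, had 152, 159.6, 136 and 132 CPM in dn, 103, 117, 118 and 107 CPM in CD4 sp and 69.0, 74.6, 75.3 and 73.3 CPM in CD8A sp cells. The classes did not overlap, but the difference from CD4 sp cells was small (log2 fold changes 0.37 ± 0.07 and 0.99 ± 0.08, edgeR adjusted p = 0.0062 and 6.15e-08). The call against CD4 sp cells was lost without dog 1 (edgeR adjusted p = 0.0514), without dog 2 (edgeR adjusted p = 0.158) and without the block (edgeR adjusted p = 0.199). After thinning, a GATA3 UMI was found in 45.8 ± 6.14% of dn and 38.4 ± 1.77% of CD4 sp cells. This share was higher in dn cells in 3 of 4 dogs, and dog 4 went the other way (37.0 against 37.7%). IL4R, the interleukin 4 receptor, had 63.5 ± 24.7 CPM in dn and 53.1 ± 9.15 CPM in CD4 sp cells and was not called between them (edgeR adjusted p = 0.705).

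Of the regulatory list, 2 of 4 genes were higher than in CD4 sp cells (0.669% of all genes, list median log2 fold change 0.69) and 3 of 4 higher than in CD8A sp cells (7.98% of all genes, list median 2.23). FOXP3, the transcription factor that defines regulatory T cells, had 22.0, 31.1, 30.0 and 34.5 CPM in dn and 18.6, 25.5, 36.1 and 22.0 CPM in CD4 sp cells. The values overlapped, dog 3 went the other way, and the test found no call (log2 fold change 0.20 ± 0.16, edgeR adjusted p = 0.797). The direction turned at 5000 to 7000 UMIs (-0.23) and when dn cells, but not CD4 sp cells, with a CD8B UMI were left out (-0.079). FOXP3 was higher than in CD8A sp cells (2.58 ± 0.27, edgeR adjusted p = 1.71e-06), by 1.47 at 5000 to 7000 UMIs and 4.46 at 7000 to 20000 UMIs, and 7.64 ± 1.46% of thinned dn cells had a FOXP3 UMI against 7.23 ± 2.59% of CD4 sp cells. IKZF2, another regulatory cell factor, had 40.8 ± 13.4 CPM in dn, 32.7 ± 6.18 in CD4 sp and 38.5 ± 13.7 in CD8A sp cells, without a call.

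The remaining genes higher than in both classes have varied roles. LGALS3, the lectin galectin 3 and the other called gene of the Th2-like list, had 193, 293, 228 and 169 CPM in dn against 79.4, 154, 181 and 107 CPM in CD4 sp cells, where the ranges overlapped although dn was higher within each dog (log2 fold change 0.77 ± 0.11, edgeR adjusted p = 0.00186). ADIRF, a factor described in fat cell development, had 140.0, 319, 81.4 and 119 CPM in dn against 41.5, 151, 69.7 and 40.4 CPM in CD4 sp cells (1.11 ± 0.15, edgeR adjusted p = 0.00151), with dog 2 highest in both classes. NMB, the peptide neuromedin B, had 25.3, 29.6, 17.4 and 36.6 CPM in dn and 17.9, 6.01, 11.1 and 8.59 CPM in CD4 sp cells (1.42 ± 0.25, edgeR adjusted p = 0.00583), a difference of 0.76 at 5000 to 7000 UMIs, where it did not pass, and of 2.68 at 7000 to 20000 UMIs. RAB38, a GTPase of lysosome-related organelles, had 31.3, 48.7, 38.5 and 4.26 CPM in dn and 13.6, 19.5, 21.6 and 2.09 CPM in CD4 sp cells, with dog 4 low in both. Further genes were KLK11, a serine protease (30.6 ± 16.2 CPM in dn and 14.4 ± 8.60 in CD4 sp cells), RBP4, the retinol carrier (129.7 ± 30.9 and 69.7 ± 23.0), ADAM19, a membrane metalloprotease (46.5 ± 20.6 and 25.7 ± 8.12), and S100A5, a calcium-binding protein (3034 ± 279 and 2050.4 ± 406). Genes of the cytoskeleton and nuclear envelope were among them, VCL for vinculin (25.4 ± 6.48 and 13.9 ± 2.54 CPM), LMNA for lamin A/C (184 ± 29.8 and 103 ± 27.3 CPM) and FHL2, a LIM domain protein (29.3 ± 5.65 and 17.6 ± 5.12 CPM), and so was OXNAD1, a predicted oxidoreductase (50.4 ± 6.98 and 34.2 ± 4.90 CPM).

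The genes lower than in both classes were TCF7 and CDCA7L. TCF7, which encodes TCF-1 of naive and memory T cells, had 233, 237, 184 and 241 CPM in dn, 335, 295, 257 and 308 CPM in CD4 sp and 311, 330.0, 224 and 308 CPM in CD8A sp cells. It was lower in every dog, with log2 fold changes of -0.42 ± 0.06 and -0.36 ± 0.06 (edgeR adjusted p = 0.00154 and 0.000484). CDCA7L, a nuclear partner of MYC, had 17.7 ± 5.57 CPM in dn, 28.7 ± 5.71 in CD4 sp and 40.9 ± 12.8 in CD8A sp cells.

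**Figure D3:**
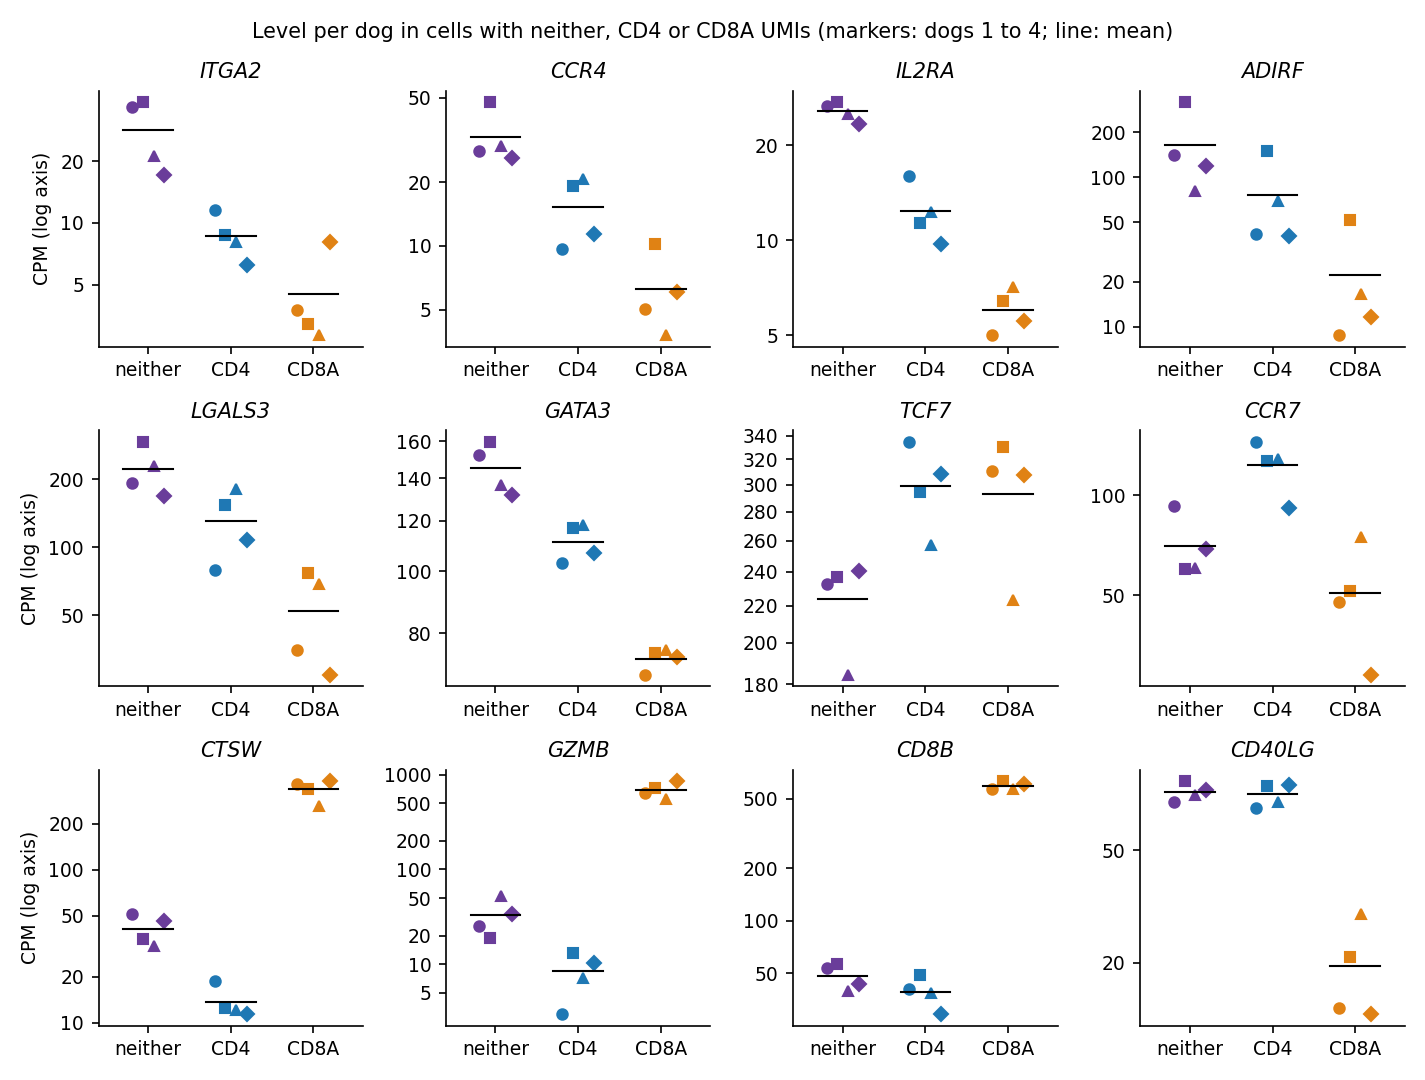
Level (CPM, log axes that differ between panels) of 12 genes in dn cells (neither), CD4 sp and CD8A sp cells, with a marker per dog (circle dog 1, square dog 2, triangle dog 3, diamond dog 4) and a line at the mean of 4 dogs. ITGA2, CCR4, IL2RA and GATA3 are highest in dn cells, CD40LG and CD8B lie near the CD4 sp level, and CTSW and GZMB lie between the classes.

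Genes of naive and central memory cells were in part lower than in CD4 sp cells. Of 5 genes of the naive list tested, 2 were lower (0.123% of all genes) and none higher (list median log2 fold change -0.39), whereas 2 were higher and 2 lower than in CD8A sp cells (7.98 and 5.78% of all genes, list median 0.42). CCR7, which guides T cells to lymph nodes, had 92.6, 60.1, 60.3 and 69.0 CPM in dn and 145, 127, 128.3 and 91.2 CPM in CD4 sp cells, lower within each dog with ranges that overlapped slightly (log2 fold change -0.83 ± 0.14, edgeR adjusted p = 0.00424). It did not pass without dog 2 (-0.73, edgeR adjusted p = 0.158) or without the block (-0.83, edgeR adjusted p = 0.52). The transcription factor LEF1 (222 ± 118 and 288 ± 152 CPM) was not called against CD4 sp cells. The largest drop against CD4 sp cells among the genes named by rule was that of SELENOP, a selenium carrier, with 7.33, 11.4, 5.20 and 14.1 CPM in dn, 33.6, 23.2, 19.5 and 30.2 CPM in CD4 sp and 1.08 ± 0.468 CPM in CD8A sp cells (-1.42 ± 0.18, edgeR adjusted p = 0.00103). Others were the exchange factor TRIO (-0.80), the kinase ALPK2 (-0.79), the RNA methyltransferase METTL8 (-0.50), the lipid enzyme NAPEPLD (-0.43), the zinc finger factor HIVEP2 (-0.36) and the lysosomal transporter SPNS1 (-0.26), each lower in all 4 dogs.

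Against CD8A sp cells the differences were larger. The named genes that were higher included TNFRSF18, the co-stimulator GITR (26.0 ± 9.95 CPM in dn and 4.37 ± 2.29 in CD8A sp cells, log2 fold change 2.49), CCDC3, a secreted protein (84.0 ± 54.6 and 8.60 ± 3.74, 3.21), TIAM1, an activator of RAC1 (58.2 ± 20.8 and 7.16 ± 4.26, 2.89), the calcium-binding S100A14 (20.4 ± 5.64 and 3.92 ± 2.71, 2.46) and MMP25, a membrane-bound metalloprotease (36.5 ± 2.19 and 6.21 ± 3.73, 2.46). Those that were lower included granzyme A (GZMA, 3.32 ± 4.51 and 87.7 ± 60.8 CPM, -4.94), the receptor CD160 (5.79 ± 2.63 and 149.9 ± 49.0, -4.80), the integrin chain ITGAM (2.49 ± 2.21 and 61.7 ± 37.7, -4.71), the chemokines CCL5 (144 ± 194 and 2866 ± 2412, -4.60) and CCL4 (23.4 ± 12.5 and 534 ± 181, -4.50), the NK receptors NCR3 (7.09 ± 5.22 and 142 ± 59.7, -4.38) and KLRB1 (5.69 ± 8.12 and 121 ± 40.1, -4.26), and ZEB2, a factor of terminal effector cells (1.54 ± 0.878 and 29.2 ± 6.82, -4.05). Of these 13 genes S100A14 had the largest edgeR adjusted p, 5.32e-05, and no gene had a dn range that overlapped the CD8A sp range. The 8 lower genes differed less in deeper cells, with CCL5 at -5.65 for 5000 to 7000 UMIs and -3.73 for 7000 to 20000 UMIs, ZEB2 at -4.56 and -3.04, and CCL4 at -5.27 and -2.94. In the same ranges GZMA was at -7.55 and -3.01, and ITGAM at -5.79 and -2.91. The difference between the depth ranges was not tested. Leaving out 1 dog moved GZMA to -5.95 (dog 1) and -4.14 (dog 4), ITGAM to -4.09 (dog 4), KLRB1 to -5.82 and S100A14 to 3.08 (dog 3), all still called. CCDC3 was at 3.65 and 2.07 in the 2 depth ranges. With any number of TRB rows in single-positive cells CCDC3 was at 2.25 and TIAM1 at 2.13, with a mitochondrial limit of 5% GZMA was at -6.21, and with DESeq2 KLRB1 was at -5.19.

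Of all genes tested, 0.791% were called against CD4 sp cells, so that a list without a call is near the share over all genes. No gene passed in either direction in the lists of the TCR complex (10 tested, median log2 fold change -0.024), Th1-like cells (6, -0.098), Th17 cells (2, -0.32), proliferation (4, -0.0043), MHC class II (3, 0.041), early activation (6, -0.020), interferon response (5, 0.11), B cells (3, -0.035), myeloid cells (1, 0.40), ribosomal proteins (67, -0.044) and mitochondrial genes (13, 0.082). HAVCR2 was the single call among 4 exhaustion genes (median -0.0036), EOMES among 5 genes of the CD8 lineage (0.28) and FCER1G among 8 innate-like genes (0.39), all higher in dn cells. The γδ T cell, NK cell and platelet lists had no gene above the filter on low counts.

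The following genes of the lists were not called between dn and CD4 sp cells. CD3G, CD3D and the kinase LCK of TCR signalling had 461 ± 13.5, 432 ± 26.5 and 392 ± 42.6 CPM in dn against 460.1 ± 15.97, 434 ± 33.8 and 417 ± 39.6 CPM in CD4 sp cells. Of the Th1-like genes, the receptors IL18R1, CCR9, CXCR3 and IL12RB2 had 91.6 ± 28.5, 91.9 ± 53.0, 58.2 ± 29.0 and 51.3 ± 33.8 CPM in dn against 101.1 ± 22.8, 90.8 ± 55.8, 78.2 ± 31.3 and 52.2 ± 40.6 CPM in CD4 sp cells. TBX21, the Th1 master factor, stood at 23.2 ± 12.3 CPM in dn, 24.2 ± 9.82 in CD4 sp and 81.6 ± 11.6 in CD8A sp cells and was lower than in the last (edgeR adjusted p = 2.91e-07). CCR6, a chemokine receptor of Th17 cells, had 20.3 ± 7.22 CPM in dn against 30.3 ± 5.22 CPM in CD4 sp cells without a call (edgeR adjusted p = 0.0882), and IL17A was at 0 CPM in dn cells. The cytotoxic genes GZMK and KLRK1 had 122 ± 91.1 and 89.4 ± 73.2 CPM in dn against 76.8 ± 46.9 and 57.8 ± 40.0 CPM in CD4 sp cells, neither called. CD74, the invariant chain of MHC class II, the proliferation marker MKI67 and the checkpoint receptor PDCD1 had 4404 ± 637, 78.8 ± 42.5 and 11.1 ± 3.69 CPM in dn against 4459.8 ± 808, 68.6 ± 25.3 and 13.2 ± 2.03 CPM in CD4 sp cells. FOS and CD44 of early activation had 1134 ± 132 and 747 ± 24.9 CPM against 1158 ± 152 and 683 ± 68.5 CPM, and the interferon-induced MX2 had 80.4 ± 31.8 against 66.9 ± 19.5 CPM.

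Of all genes tested, 7.98% were higher and 5.78% lower than in CD8A sp cells, and the counts of the same lists are to be read against these shares. They were 3 higher and 2 lower of 10 for the TCR complex (median -0.100), 3 lower of 5 for the CD8 lineage (-1.62), 6 lower of 8 for innate-like genes (-2.36), 2 lower of 6 for Th1-like genes (-0.12), 2 lower of 4 for exhaustion (-1.27) and 1 higher and 1 lower of 2 for Th17 cells (1.24). There were 3 higher of 5 for the interferon response (0.46), 2 higher and 1 lower of 6 for early activation (0.019), 1 higher of 3 for B cells (0.0048), S100A8 as the 1 myeloid gene tested (1.26), 4 higher and 3 lower of 67 for ribosomal proteins (0.046) and 8 lower of 13 for mitochondrial genes (-0.19). No gene was called for MHC class II (3 tested, -0.11) or proliferation (4 tested, -0.62). The co-stimulatory receptor CD28, with 119.7 ± 13.0 CPM in dn, 122 ± 19.0 in CD4 sp and 48.2 ± 23.5 in CD8A sp cells, and the inhibitory receptor CD5, with 379 ± 43.8, 383 ± 54.7 and 263 ± 35.9 CPM, were higher than in CD8A sp cells. The B cell gene called here was MS4A1, at 4.59 against 0.984 CPM, while PAX5 was at 0 in both classes. The part of B cells in this call was not tested.

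The receptors offer a readout that the choice of cells did not use apart from the number of TRB chains. With each clone counted once, 4 of 18 TRBV genes were called against CD4 sp cells (22.2%) and 1 of 23 TRAV genes (4.35%), while none of 11 TRBJ or 40 TRAJ genes were (0 and 2 at an unadjusted p under 0.05 in edgeR, the only tool run on gene use). Against CD8A sp cells none of the TRBV, TRBJ and TRAV genes were called in edgeR (7, 1 and 2 at an unadjusted p under 0.05) and 1 of 40 TRAJ genes was (2.5%). With each cell counted 1 TRBV gene was called against CD4 sp cells and 3 TRAV genes against CD8A sp cells, and the TRAJ call was lost in that count and without dog 1. Without dog 1 or without dog 4, 2 TRAV genes were called against CD4 sp and 1 TRBV gene against CD8A sp cells.

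TRAV9-11 gave the largest difference from CD4 sp cells. It was used by 14.3, 14.4, 15.02 and 7.85% of dn clones in dogs 1 to 4, counting clones with an α chain, by 1.39, 2.96, 3.97 and 3.01% of CD4 sp clones and by 21.1, 15.6, 13.1 and 11.6% of CD8A sp clones. Every dn value was above every CD4 sp value, and dog 4 was low among the dn values. The log2 fold change was 2.18 ± 0.26 (edgeR adjusted p = 5.82e-13) against CD4 sp and -0.17 ± 0.24 (edgeR adjusted p = 0.715) against CD8A sp cells. TRAJ28 was used by 3.94 ± 1.18% of dn, 3.64 ± 1.68% of CD4 sp cells and 12.01 ± 5.07% of CD8A sp clones and was lower than in CD8A sp cells (-1.47 ± 0.33, edgeR adjusted p = 0.000367).

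Among β chains, TRBV18 was used by 13.3, 15.1, 14.5 and 10.4% of dn clones against 5.41, 7.21, 9.98 and 7.73% of CD4 sp clones, without overlap (log2 fold change 0.83 ± 0.18, edgeR adjusted p = 0.000615). TRBV4-4 (3.24 ± 1.86 against 0.806 ± 0.483%, log2 fold change 1.95) and TRBV4-2 (2.51 ± 1.01 against 0.692 ± 0.211%, log2 fold change 1.77) were also higher, and TRBV5-2 was lower (5.20 ± 1.66 against 8.14 ± 1.13%, log2 fold change -0.70). The genes used most by dn clones were TRBV16 (15.3 ± 2.18%), TRBV18 and TRBV7 (11.8 ± 2.80%) for the β chain and TRAV43-1 (13.1 ± 2.96%), TRAV9-11 and TRAV12 (8.85 ± 1.66%) for the α chain.

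In mean length the TRB junction of dn cells lay between the classes. It was 44.6, 44.0, 44.2 and 44.4 bases in dn, 43.5, 42.8, 42.6 and 43.8 bases in CD4 sp and 45.6, 44.8, 44.4 and 45.9 bases in CD8A sp cells. The dn mean was above the CD4 sp mean in 4 of 4 dogs (difference 1.13 ± 0.447 bases, SD) and below the CD8A sp mean in 4 of 4 (-0.856 ± 0.566 bases), each with an exact paired permutation p of 0.13, the smallest possible. Fewer α chains were found in dn cells. The number of TRA rearrangements per cell was 0.892 ± 0.0603 in dn, 0.949 ± 0.0359 in CD4 sp and 0.978 ± 0.0512 in CD8A sp cells, the share of cells with none was 18.0 ± 5.50, 13.7 ± 3.49 and 11.8 ± 3.95%, and TRA UMIs per cell were 4.85 ± 0.996, 5.61 ± 1.11 and 7.06 ± 1.02. For each of these measures the dn value differed in the same direction from both classes in 4 of 4 dogs (exact paired permutation p = 0.13). Of 6 receptor measures tested, with TRB UMIs and cells with several TRA chains as the others, none can pass 0.05 with 4 dogs, before or after adjustment.

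Clones held dn cells together with cells of both single-positive classes. In clones of at least 2 cells of any depth were 21.4, 41.6, 63.0 and 59.6% of the dn cells of dogs 1 to 4, 7.23, 43.6, 36.7 and 59.3% of the CD4 sp cells and 54.9, 66.4, 68.3 and 73.4% of the CD8A sp cells. The dn share was below the CD8A sp share in 4 of 4 dogs (exact paired permutation p = 0.13) and above the CD4 sp share in 3 of 4 (p = 0.375, same test; 2 of 4 where clone size was counted over deep cells only), and dog 1 was low in both dn and CD4 sp cells. Where a dn cell had single-positive relatives, most of these were CD4 sp cells in 7, 54, 42 and 52 clones of dogs 1 to 4 and CD8A sp cells in 2, 7, 21 and 9. Counted over pairs of a dn cell and a relative, CD8A sp cells made up 27.3, 22.2, 65.2 and 8.26% of single-positive relatives (mean 30.7 ± 24.3%). The mean was 19.2% without dog 3 and 20.4% with each clone counted once by its majority class. It was 38.2% without dog 4 and 39.6% with at least 2 UMIs of CD4 or CD8A required. How this compares depends on the base. CD8A sp cells made up 70.1, 44.0, 73.8 and 52.0% of the single-positive cells of any depth in clones of at least 2 cells, and the share among relatives was lower by 29.3 ± 17.1 percentage points (SD), in 4 of 4 dogs (exact paired permutation p = 0.13, the smallest possible). They made up 17.4, 29.5, 47.2 and 39.7% of all single-positive cells of any depth, and here the share among relatives was above this base in 2 dogs and below it in 2 (exact paired permutation p = 0.875). Both comparisons were added after the data had been seen.

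Relatives with fewer than 5000 UMIs were not used in choosing the cells, and they allowed a test of whether cells without either transcript recur within a clone. This test was chosen after the data had been seen. For each clone with a deep cell of a class, the share of its shallow cells without CD4 or CD8A UMIs was taken and averaged over clones. It was 86.4, 55.1, 67.3 and 64.0% for clones with a deep dn cell, 36.0, 26.6, 37.6 and 32.7% for clones with a deep CD4 sp cell and 3.67, 17.8, 22.4 and 7.25% for clones with a deep CD8A sp cell. The dn range lay above both others. The difference was 34.9 ± 10.3 percentage points (SD, n = 4) against CD4 sp and 55.4 ± 19.9 points against CD8A sp clones, each in 4 of 4 dogs with an exact paired permutation p of 0.13, the smallest possible. Shallow relatives had median depths of 3942, 3952, 4125 and 3916 UMIs for dn clones, 3700, 3934, 4128 and 3837 UMIs for CD4 sp clones and 3715, 3716, 3443 and 3508 UMIs for CD8A sp clones. A clone may enter under several classes, so the groups of clones share members.

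For the receptors printed above, only the cells under 5000 UMIs are given, since the deep dn cells chose these clones. Of 22 such cells of the TRBV24 clone of dog 2, 21 were dn. In the TRBV7 and TRBJ2-6 clone of dog 3 it was 18 of 19, and in the TRBV7 and TRBJ2-5 clone of dog 4 it was 15 of 15. The TRBV24 junction held 0 bases between V and J gene. Of its cells of any depth with a TRA, 39 of 52 carried the same TRA junction. In the other printed clones this was 84 of 84, 33 of 33 and 26 of 32. Whether each group with the same TRB descends from a single cell was not tested. The TRBV7 and TRBJ2-1 clone of dog 3 was mixed, with 24 dn, 14 CD8A sp and 1 CD4 sp cells of 39. Over all 159 clones of at least 10 cells of any depth, taken whatever their class, 12 were at least 90% dn and another 12 between 50 and 90% dn, while the most frequent class was CD4 sp in 57 and CD8A sp in 73. The median dn share of these clones was 10.0%, and clones of at least 90% dn occurred in each dog (2, 2, 5 and 3).

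**Figure D4:**
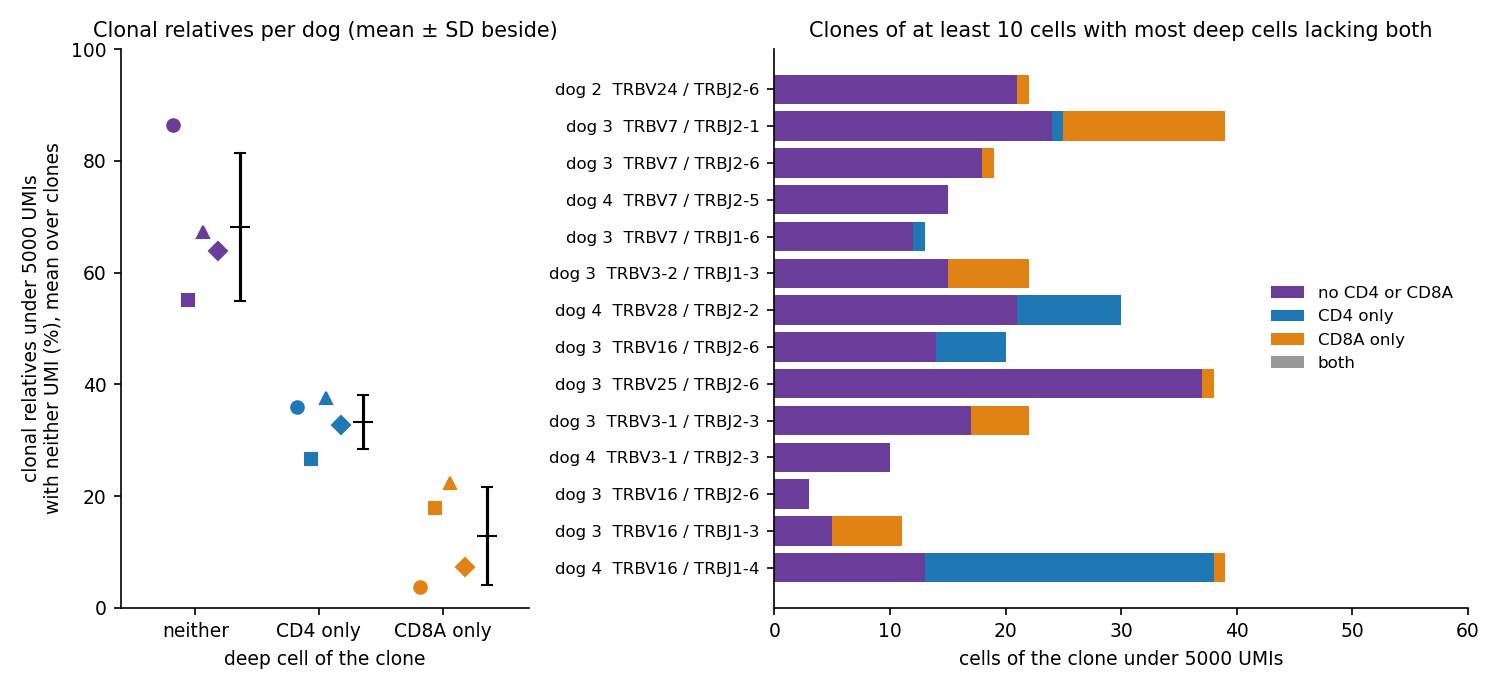
Left, the share (%) of shallow relatives (under 5000 UMIs) without CD4 or CD8A UMI, averaged over the clones of each dog that hold a deep dn, CD4 sp or CD8A sp cell (circle dog 1, square dog 2, triangle dog 3, diamond dog 4; bar, mean ± SD). Right, the number of cells under 5000 UMIs in the 14 clones with the most deep dn cells, split by co-receptor transcripts, so that the deep cells that chose the clones are left out: clones such as TRBV24 in dog 2 (21 of 22 cells) and TRBV7 with TRBJ2-5 in dog 4 (15 of 15) are nearly or wholly dn, and others hold many CD8A sp or CD4 sp cells.

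The dn cells were not uniform. Those in clones (51, 202, 331 and 227 cells in dogs 1 to 4) differed from those found alone (187, 283, 194 and 154 cells) in 251 of 7502 genes (3.35%), of which 124 were higher (1.65%) and 127 lower (1.69%) in clones. The count rests on single dogs and on the pairing, with 61 genes called without dog 4, 68 without dog 2, 500 without dog 1 and 43 without the block. This split was also chosen after the data had been seen. CCR9, a chemokine receptor of gut-homing cells, had 69.2, 185, 200.04 and 173 CPM in clonal and 5.92, 29.0, 45.7 and 34.3 CPM in lone dn cells, without overlap (log2 fold change 2.45 ± 0.14, edgeR adjusted p = 2.05e-08). KLRK1, the activating receptor NKG2D, had 31.4, 138, 263 and 144 CPM in clonal and 3.38, 34.1, 54.8 and 9.08 CPM in lone dn cells, higher within each dog (2.45 ± 0.18, edgeR adjusted p = 4.6e-07). Also higher in each dog were KLRD1, the NK receptor CD94 (70.1 ± 35.9 and 12.7 ± 13.9 CPM), TBX21, the Th1 transcription factor T-bet (34.8 ± 13.0 and 11.6 ± 4.82), IL18R1, the interleukin 18 receptor (126 ± 42.6 and 53.7 ± 12.6), CCL4 (45.1 ± 36.5 and 12.03 ± 7.54), the hypoxia factor EPAS1 (33.3 ± 15.95 and 13.0 ± 6.25), the phospholipid-binding ANXA5 (21.5 ± 9.75 and 5.19 ± 2.31), the zinc finger factor REPIN1 (21.9 ± 9.07 and 7.197 ± 2.81) and ARHGAP5, a GTPase-activating protein (36.7 ± 9.52 and 12.9 ± 4.23).

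Lone dn cells had more NMB, CCR7 and GATA3. NMB had 31.3, 45.3, 44.0 and 81.7 CPM in lone and 3.14, 5.48, 1.94 and 3.69 CPM in clonal dn cells, without overlap (log2 fold change -3.93 ± 0.27 for clonal against lone, edgeR adjusted p = 2.06e-07). Also lower in clones in each dog were RGS10, a regulator of G protein signalling (13.0 ± 6.59 and 114 ± 66.7 CPM in clonal and lone cells), the receptor GPR25 (27.9 ± 7.89 and 114 ± 37.2), SAMHD1, a nucleotide hydrolase (20.3 ± 11.3 and 64.6 ± 31.7), TRIB1, a pseudokinase (10.8 ± 5.41 and 30.0 ± 6.19), the kinase TXK (11.5 ± 4.04 and 35.5 ± 10.8), CSTA, a protease inhibitor (40.7 ± 31.3 and 118 ± 83.3), PSEN2, a protease subunit (11.8 ± 4.97 and 31.4 ± 10.3), TNFRSF18 (15.3 ± 8.44 and 36.2 ± 9.70) and AP1S2, of vesicle traffic (18.1 ± 7.84 and 37.6 ± 9.25). From the lists, CCR7 (43.3 ± 14.4 and 88.5 ± 17.9 CPM) and GATA3 (127 ± 16.1 and 163 ± 8.45) were lower in clones, as was ADIRF in 3 of 4 dogs (124 ± 104 and 227 ± 136). CCR4 (28.2 ± 21.3 and 44.5 ± 19.0 CPM, edgeR adjusted p = 0.0547), IL2RA (21.3 ± 7.54 and 31.9 ± 4.92, edgeR adjusted p = 0.0774) and FOXP3 (20.4 ± 10.9 and 41.0 ± 20.3, edgeR adjusted p = 0.0547) did not pass, and in dog 1 each was higher in clones.

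Levels of CCR4, KLRK1 and CCR9 are given for the 4 printed clones, those with the most deep dn cells. In the 35, 32, 18 and 17 deep dn cells of the 4 printed clones CCR4 had 0 UMIs, and KLRK1 stood at 245 CPM in the clone of dog 2 against 34.1 CPM in the lone dn cells of that dog, at 295 and 182 CPM in the clones of dog 3 against 54.8 CPM, and at 560.0 CPM in the clone of dog 4 against 9.08 CPM. CCR9 stood at 259, 306, 207 and 328 CPM in the 4 clones, in the order printed. These cells are part of the clonal sums in which KLRK1 and CCR9 were called, so the levels are a description. The 4 clones differed in other genes. GZMK had 55.6, 88.1, 562 and 0 CPM and LGALS3 had 236, 176, 112 and 19.3 CPM. With 1 cell kept per clone, 87 genes were called between clonal and lone dn cells, 79 of them among the 251.

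**Figure D5:**
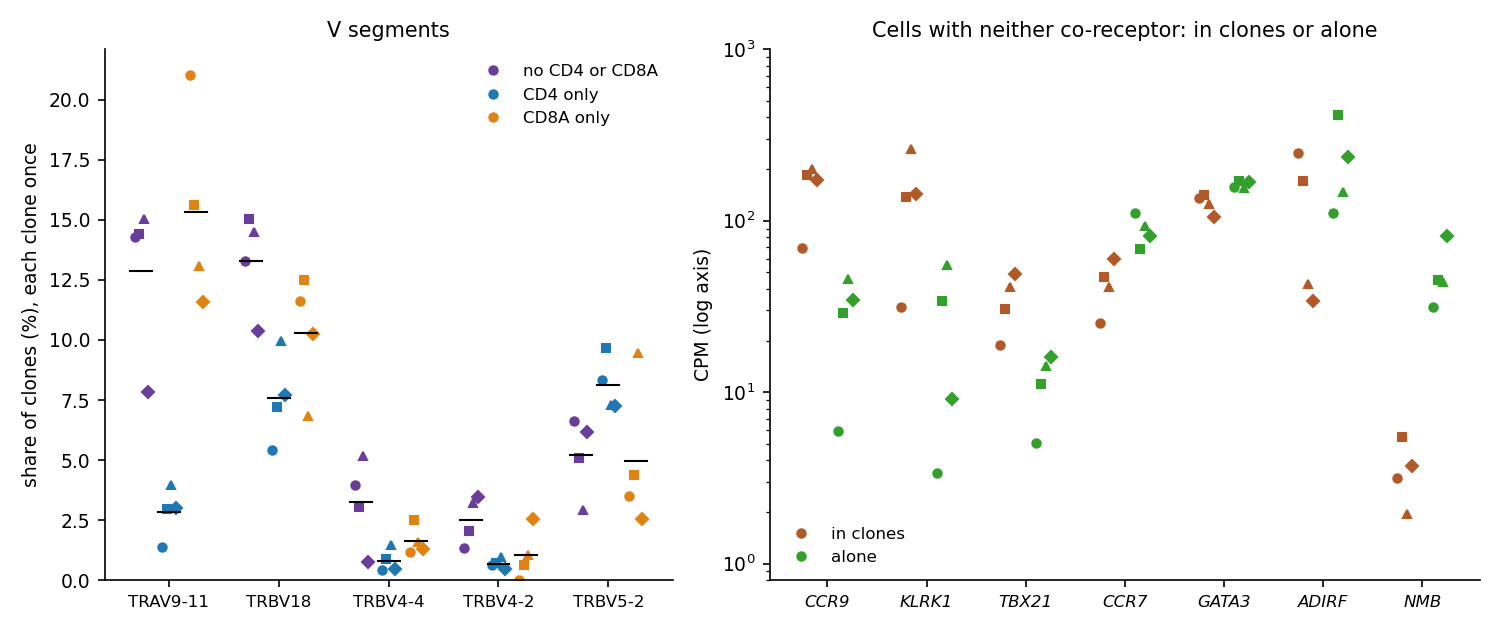
Left, share of clones (%, each clone once) that used 5 V genes in dn, CD4 sp and CD8A sp cells, a marker per dog (circle dog 1, square dog 2, triangle dog 3, diamond dog 4) and a line at the mean: TRAV9-11 in dn cells lies above all CD4 sp values. Right, level (CPM, log axis) of 7 genes in dn cells that belong to clones and in dn cells found alone: CCR9, KLRK1 and TBX21 are higher and CCR7 and NMB lower in clonal cells of each dog, while ADIRF in dog 1 goes against the other dogs.

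The dn cells were also split by CD8B. Cells with a CD8B UMI (65, 138, 109 and 91 in dogs 1 to 4) had 29 genes higher (0.406%) and 9 lower (0.126%) of 7151 tested, in all 38 (0.531%), and edgeR called none without dog 1 (466 at an unadjusted p under 0.05) or without the block (228), 21 without dog 2 and 17 without dog 4. DESeq2 called 4. FOXP3 had 31.2, 44.9, 44.1 and 52.7 CPM with and 18.1, 25.0, 26.1 and 28.2 CPM without CD8B, without overlap (log2 fold change 0.83 ± 0.17, edgeR adjusted p = 0.0134). NMB (45.3 ± 26.0 and 20.5 ± 2.82 CPM), the β chain gene TRBV13 (28.7 ± 7.77 and 13.5 ± 4.22), KLRD1 (53.5 ± 38.1 and 31.7 ± 26.8), the fatty acid carrier FABP3 (64.1 ± 13.8 and 38.5 ± 8.88), the thymidine kinase TK1 (55.4 ± 25.2 and 33.4 ± 11.9), the actin-binding LASP1 (96.8 ± 16.7 and 70.1 ± 10.2), the repressor JDP2 (109 ± 20.5 and 76.9 ± 11.4), ODC1 of polyamine synthesis (220.1 ± 22.6 and 172 ± 17.9) and the interferon-induced GBP1 (307 ± 82.3 and 244 ± 73.7) were also higher in each dog. GZMB (61.7 ± 40.7 and 23.0 ± 13.8 CPM) and FCER1G (35.1 ± 31.8 and 8.79 ± 8.23 CPM) were higher in 3 of 4 dogs.

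Lower in dn cells with CD8B were TNFSF8, the CD30 ligand (46.1 ± 5.51 and 70.7 ± 7.203 CPM), RBP4 (99.4 ± 24.5 and 141 ± 35.4), FGL2, a secreted immune regulator (185 ± 36.7 and 266 ± 9.34), the β chain gene TRBV28 (190.4 ± 28.2 and 269.7 ± 89.7), IL7R, the interleukin 7 receptor (679 ± 190.4 and 821 ± 128.3), the early response factor FOS (1001 ± 91.2 and 1182 ± 161) and LTB, lymphotoxin β (1159 ± 126 and 1346 ± 208), each lower in 4 of 4 dogs. Cells with CD8B were deeper in each dog, with medians of 5800, 6420, 5791 and 6061 UMIs against 5515, 5921, 5762 and 5701. The part of depth in these calls was not tested.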

How the data were processed

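The authors deposited unnormalized UMI counts by gene and barcode for 4 expression libraries, limited to barcodes called as cells, and lists of TRA and TRB rearrangements with their UMI counts. Per the study's methods, reads were processed with Cell Ranger 5.0.1 and aligned to CanFam 3.1, dead cells and doublets were excluded in the sort, and TCR genes were amplified with canine primers. For the V and J reference genes a source was not found among the labels, methods and file headers. Dog 1 came with a gene list of 27980 lines, against 20257 matrix rows, so the list shared by the other dogs was used, under which log gene totals of dog 1 correlated with theirs at r = 0.989 to 0.991 (across genes, which are not independent replicates). Of 4453 genes without a symbol in that list, 138 were named from the dog 1 list by identifier.

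Of 31928 cells within the mitochondrial limit, 7392 held 5000 to 20000 UMIs. Of 2178 dn cells of that depth, 451 had no TRB and 98 had 2, and both were left out. No doublet caller was run. UMIs were summed per dog and class and tested with edgeR 4.0.16 in R 4.3.3 (TMM, filterByExpr, dog as a block, Benjamini-Hochberg over all genes tested). CD4 and CD8A were not tested. Pairing comes from the design, since the classes of a dog share a library, and deviations of dn and CD4 sp sums correlated at 0.605, 0.453, 0.545 and 0.596 within dogs. Marker tests over single cells were not used, since cells are not replicates. DESeq2 1.42.0, other filters, depths and thresholds, 1 cell per clone and leaving out each dog were alternatives. V and J genes with at least 20 clones were tested. Shares, clones and receptor measures were tested with exact paired sign-flip permutation tests (two-sided). Scripts were tested on simulated data with known changes.

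Named genes are, per comparison and direction, the 10 (15 for both classes) with a symbol and the largest log2 fold change among those with an adjusted p under 0.05, the same direction in all 4 dogs and at least 20 CPM in a class, and abundant genes of the lists. The members and lists were chosen with earlier results of these data known. A few list genes are counted but their own values are not reported here.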

Additional observations from a re-analysis of the deposited data

Results flagged for a closer look

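In 6 of 73 values looked at in dn cells, 1 dog stood far from the other 3. Chance alone gives this in about 1 in 20 groups. CCR4 was high in dog 2 (47.8 CPM against 26.0 to 29.7), TCF7 was low in dog 3 (184 CPM against 233 to 241) and CDCA7L was high in dog 1 (26.0 CPM against 13.8 to 15.8). Each of these 3 genes still differed from both single-positive classes in the same direction in every dog. CCL5, a chemokine of cytotoxic cells, was high in dog 1 (433 CPM against 20.2 to 76.3), a dog whose CD8A sp cells also had the highest CCL5 (6385 CPM). KLRB1 was high in dog 3 (17.7 CPM against 0 to 2.56). TRAV9-11 was low in dog 4, with 7.85% of dn clones against 14.3 to 15.0% in the others.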

How the results depend on the processing

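Direction was steadier than the number of calls. Of 33 named genes called against CD4 sp cells, none changed sign in any alternative run that tested it. Only 32 of them were tested at 5000 to 7000 UMIs and 31 at 7000 to 20000 UMIs. Of the 33 genes, 8 remained called without dog 2 and 2 without the replicate block. Counts of calls, given for dn against CD4 sp, dn against CD8A sp and both, were 71, 1235 and 31, and became 2, 557 and 0 without the replicate block, 47, 761 and 12 with DESeq2 and 21, 492 and 1 at 7000 to 20000 UMIs, where fewer cells enter. Without a filter on low counts there were 245 against CD4 sp and 87 against both, and with 1 cell per clone 123 and 49. Leaving out 1 dog gave 13 to 88, 739 to 1088 and 0 to 31, the lowest each time without dog 2, and without dog 1 the first and last were 47 and 19. For dn cells with and without CD8B, 38 calls became 0 without the block (228 at an unadjusted p under 0.05), 63 without the filter, 4 with DESeq2 and 0 to 57 with 1 dog left out (0 without dog 1, 21 without dog 2, 17 without dog 4). For clonal and lone dn cells, 251 became 43 without the block, 482 without the filter, 87 with 1 cell per clone and 61 to 500 with 1 dog left out (500 without dog 1, 68 without dog 2, 61 without dog 4). The dn share was 44.9% with 2 UMIs required. List genes with a lower share of dn than of CD4 sp cells in every dog numbered 10, 6 with 2 UMIs required and 13 to 17 with 1 dog left out, where fewer dogs have to go the same way. With each cell counted, calls went from 4 to 1 for TRBV against CD4 sp, 0 to 3 for TRAV against CD8A sp and 1 to 0 for TRAJ against CD8A sp (4 at an unadjusted p under 0.05). With 1 dog left out, calls ranged from 3 to 5 and 0 to 1 for TRBV against CD4 sp and CD8A sp, 1 to 2 for TRAV against CD4 sp and 0 to 1 for TRAJ against CD8A sp. FOXP3 against CD4 sp turned to -0.23 at 5000 to 7000 UMIs. It turned to -0.079 when dn cells, but not CD4 sp cells, with a CD8B UMI were left out. Against CD8A sp TGFBR3 turned to 0.063 and HIVEP2 to -0.055 at 7000 to 20000 UMIs. The share of CD8A sp cells among relatives of dn cells minus that among single-positive cells in clones of at least 2 cells was -29.3 percentage points (-36.1 to -24.4 with 1 dog left out). Against all single-positive cells of 5000 to 20000 UMIs it was 1.68 points. This set relatives of any depth, counted over pairs, against deep cells counted once each. Relatives of 5000 to 20000 UMIs had a mean share of 28.9%, and that base had 29.1%. The differences between dn and the other clones in shallow relatives kept their direction in every alternative run. The causes were not tested. With 4 dogs exact tests cannot go below 0.13 (0.25 with 3), and at this depth a cell with 0 UMIs may still express the gene.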
